A study of Homo sapiens with 6 samples.

Results

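Transcripts of heat shock proteins and of the cytosolic and mitochondrial chaperones that work with them were followed in SW480 cells, an established human line from a colorectal adenocarcinoma. The members were a fixed list of 47 genes, found by their annotated symbol, and 42 of them had a row that could be counted, out of 22412 tested genes. HSPA1A and HSPA1B shared their row, so the 42 genes stood on 41 rows. Cells labelled KHSRP siRNA were transfected with 30 pmol of an siRNA against KHSRP, and cells labelled scramble siRNA with a non-targeting siRNA. Both groups received the siRNA with a lipid reagent, and RNA was taken after 48 h. There were 3 Affymetrix arrays per group, which the labels call biological replicates. Nothing in the labels says that they came from separate cultures, so p-values measure the spread between these arrays. KHSRP is a KH-domain protein that binds AU-rich elements in mRNA and is known to speed their decay, and the comparison asks which chaperone transcripts differ when it is targeted. The share of transfected cells is not given in the sources used here.

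Chaperones bind unfolded or partly folded proteins and keep them from aggregating. HSP70 proteins cycle between ATP and ADP states, J proteins (DNAJ genes) bring them substrates, and BAG and HSP110 proteins release the nucleotide. HSP90 acts later on kinases and receptors with co-chaperones, and the ring-shaped chaperonins HSP60 (mitochondria) and CCT (cytosol) enclose their substrates. In heat or proteotoxic stress the transcription factor HSF1 binds heat shock elements and induces some members strongly, whereas others are made at all times. In cancer cells many constitutive chaperones are known to be abundant.

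Promoter windows of 300 bases, from 250 before to 50 after each annotated start, were taken from RefSeq (GRCh38.p14) and are shown because HSF1 is known to drive the heat-inducible class through this element. The heat shock element was searched on both strands as 3 alternating units, GAANNTTCNNGAA, and as 2 units, GAANNTTC or TTCNNGAA. Each match to the 3-unit motif holds 2 overlapping matches to the 2-unit motifs. These counts cover all listed members with a window, 42 of the 47. Of 10 heat-inducible members with a window, 8 held the 2-unit motif and 2 the 3-unit motif, HSP90AA1 and HSPA6. Of 31 constitutive members with a window, 12 held the 2-unit motif and 5 the 3-unit motif, namely HSPA8, HSP90AB1, HSPD1, DNAJA1 and DNAJB6. Among all 27305 genes with a window these shares were 16.2% and 0.608%, and among all 35116 windows they were 13.5% and 0.49%. The first 3 sequences below belong to heat-inducible members, and the last 2 to the constitutive members with the smallest p-values in the comparison. Capitals mark matches to the 2-unit motif. The window of HSPA9 held 1 match, which begins at -4 relative to the start, and that of DNAJA3 held 0. A match is a description of letters and not evidence of a bound site.
HSPA1A promoter, chr6:31815293-31815592, plus strand: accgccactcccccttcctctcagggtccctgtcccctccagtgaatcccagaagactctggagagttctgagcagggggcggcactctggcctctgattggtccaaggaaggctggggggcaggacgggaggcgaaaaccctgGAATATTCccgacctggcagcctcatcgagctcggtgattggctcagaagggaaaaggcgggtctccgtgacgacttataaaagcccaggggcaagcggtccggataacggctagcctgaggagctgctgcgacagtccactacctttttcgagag
HSP90AA1 promoter, chr14:102086995-102087294, minus strand: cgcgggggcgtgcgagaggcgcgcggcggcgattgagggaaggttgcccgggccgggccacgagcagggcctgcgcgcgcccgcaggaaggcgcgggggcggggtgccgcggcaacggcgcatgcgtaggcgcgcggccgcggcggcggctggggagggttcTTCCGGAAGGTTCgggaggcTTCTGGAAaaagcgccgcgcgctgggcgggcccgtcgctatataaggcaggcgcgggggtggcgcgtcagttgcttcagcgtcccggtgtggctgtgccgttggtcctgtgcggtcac
HSPA6 promoter, chr1:161524290-161524589, plus strand: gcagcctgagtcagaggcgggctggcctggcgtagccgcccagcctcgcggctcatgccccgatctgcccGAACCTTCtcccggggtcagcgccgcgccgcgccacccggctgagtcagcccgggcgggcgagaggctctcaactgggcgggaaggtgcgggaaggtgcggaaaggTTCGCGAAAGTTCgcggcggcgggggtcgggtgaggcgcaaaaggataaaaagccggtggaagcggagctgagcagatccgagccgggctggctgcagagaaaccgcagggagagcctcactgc
HSPA9 promoter, chr5:138575352-138575651, minus strand: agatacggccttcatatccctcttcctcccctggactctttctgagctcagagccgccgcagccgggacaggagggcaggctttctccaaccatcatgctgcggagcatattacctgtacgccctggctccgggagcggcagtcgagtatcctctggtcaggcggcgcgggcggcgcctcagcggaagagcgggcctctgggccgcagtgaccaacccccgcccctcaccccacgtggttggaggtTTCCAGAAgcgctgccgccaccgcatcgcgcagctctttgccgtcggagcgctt
DNAJA3 promoter, chr16:4425618-4425917, plus strand: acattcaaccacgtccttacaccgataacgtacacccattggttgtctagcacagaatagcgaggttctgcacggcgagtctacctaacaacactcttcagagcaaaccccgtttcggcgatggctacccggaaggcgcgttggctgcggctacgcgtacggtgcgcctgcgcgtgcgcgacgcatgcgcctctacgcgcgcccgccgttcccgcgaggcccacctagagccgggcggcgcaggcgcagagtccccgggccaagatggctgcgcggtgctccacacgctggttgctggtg

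All levels are deposited log2 intensities, and every difference is the mean of the arrays labelled KHSRP siRNA minus the mean of those labelled scramble siRNA, with limma's standard error (SE). The siRNA target itself measured 5.62, 5.60 and 5.56 in the arrays labelled KHSRP siRNA, against 5.75, 5.59 and 5.64 in those labelled scramble siRNA. These values overlapped, and the difference of -0.07 (SE 0.08, limma adjusted p = 0.804) corresponds to 95.3% of the scramble level, with a 95% interval from 83.6% to 109%. The target's row, shared with the microRNA gene MIR3940, therefore does not check the labels, and groups are named by their labels alone. Arrays of a group correlated at 0.987 to 0.991 (Pearson, all rows) and arrays of different groups at 0.984 to 0.988. Of 12 colon epithelial markers 8, among them EPCAM, KRT8 and KRT18, had a mean in at least 1 group above 4.73, the 95th percentile of 359 olfactory receptor genes. CDX1, KRT20, LGR5 and CEACAM5 did not. Of 12 measured markers of blood, endothelial, stromal, muscle and liver cells 1, CD68, lay above that level. The summed log2 level of the epithelial markers was 93.6 to 94.4 with KHSRP siRNA as label, against 90.7 to 91.3 with scramble siRNA, and 0 of the 12 were called by limma. At an unadjusted p under 0.05, however, 5 of the 12 were higher with KHSRP siRNA as label, namely KRT8, KRT18, KRT19, SOX9 and VIL1, and their groups did not overlap. Their log2 fold changes were 0.58, 0.49, 0.55, 0.67 and 0.28 in that order. Of all tested genes, 8.51% were higher at that p and 11.6% were higher without overlap. Among genes above the median level of all tested genes, 22.3% had such a p in either direction. The sum of the other markers was 49.5 to 50.2 with KHSRP siRNA as label, against 49.2 to 50.7 with scramble siRNA. The part of the epithelial markers in the results below was not tested.

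The mitochondrial HSP70 gene HSPA9 fell in the arrays labelled KHSRP siRNA, to 64.3% of the scramble level, and it was the only member that passed limma's adjusted threshold. The mitochondrial J protein gene DNAJA3 and the HSP70 release factor gene BAG1 had differences of a similar size and did not pass. In such bulk RNA, fewer cells with a transcript and less of it per cell cannot be told apart. Over all 41 rows the median log2 fold change was -0.004, against 0.02 over all tested genes. Of the 41 rows 20 were fitted above 0 and 21 below, while all tested genes had 12316 above and 10096 below. The 1 call made up 2.44% of the rows, against 0.759% of all tested genes (limma adjusted p under 0.05), and all tested genes were called lower in 0.25% and higher in 0.509%. The 170 calls among all tested genes became 329 without KHSRP siRNA replicate 1, 1 without scramble replicate 1 and 0 without any 1 of the other 4 arrays.

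An unadjusted limma p under 0.05 was found for 9 of 41 rows, or 22.0%, against 14.4% of all tested genes. Without KHSRP siRNA replicate 3 the count was 5 of 41, or 12.2%, against 10.6% of all tested genes, and without scramble replicate 3 it was 6, or 14.6%, against 11.2%. Of the 9, all of them constitutive members, 8 were lower and 1 was higher. Lower ones made up 19.5% of the rows, against 5.89% of all tested genes, and higher ones made up 8.51% of all tested genes. Members are brighter than most genes, and 36 of the 41 lay above the median level. Refitted among genes above that level, 9 of the 36 or 25.0% had an unadjusted p under 0.05, close to the 22.3% of all such genes, and 22.2% were lower, against 9.32%. The 3 arrays of each label did not overlap for 14 of the 41 rows, or 34.1%, against 19.4% of all tested genes, a share not counted among brighter genes alone. In 10 of these the arrays labelled KHSRP siRNA were the lower ones (24.4%, against 7.82% of all tested genes), and in 4 they were the higher ones (against 11.6% of all tested genes).

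**Figure D1:**
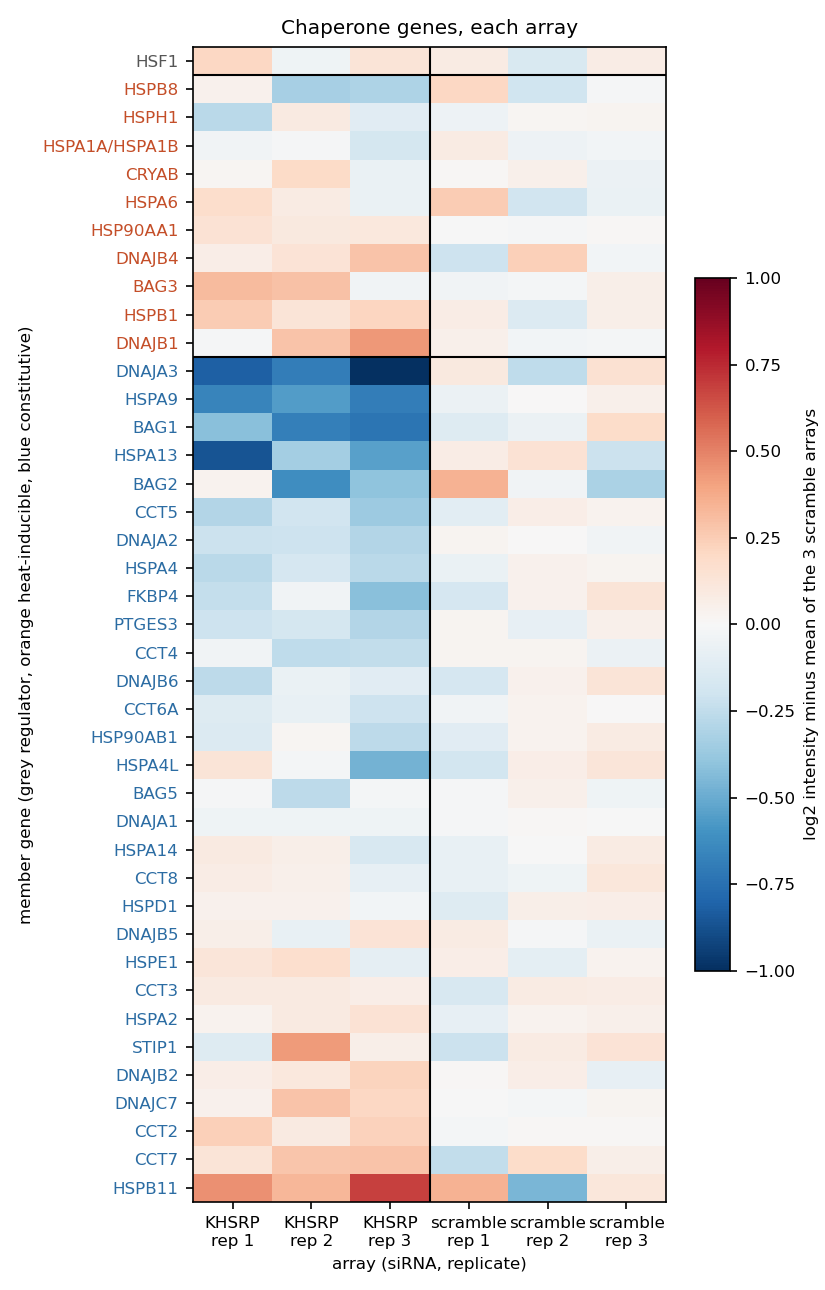
Each cell is the log2 intensity of a member gene (rows) on an array (columns), minus the mean of the 3 scramble arrays. Colours stop at plus or minus 1, which DNAJA3 exceeds in KHSRP siRNA replicate 3, and gene names are grey for the regulator, orange for heat-inducible and blue for constitutive members. HSPA9, DNAJA3, BAG1 and HSPA13 are blue, that is lower, in all 3 arrays labelled KHSRP siRNA, and no heat-inducible gene shows a shift of that size.

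The median log2 fold change was 0.09 over the 10 heat-inducible rows and -0.11 over the 30 constitutive rows, with the difference between the classes not tested. The heat-inducible median was 0.05 after quantile normalization again, 0.16 over the 7 of its rows above the median level and 0.03 for a wider class. Of all 22412 tested genes 12316 were fitted above 0 and 10096 below. Of the heat-inducible rows 7 were fitted above 0 and 3 below. Of the constitutive rows 12 were fitted above 0 and 18 below. The groups did not overlap for 12 of these 30 rows (40.0%, against 19.4% of all tested genes). They were lower in 10 (33.3%, against 7.82%) and higher in 2, and this was not counted among brighter genes alone. An unadjusted limma p under 0.05 was found for 9 of the 30 (30.0%, against 14.4%), or 9 of 28 above the median level (32.1%, against 22.3%). When each array was described by the median over the heat-inducible rows of the level minus the gene's scramble mean, it stood at 0.05, 0.11 and -0.05 in the arrays labelled KHSRP siRNA, against 0.03, -0.03 and -0.01 in those labelled scramble siRNA. The arrays of the groups overlapped on this measure. The constitutive class stood at -0.02, -0.04 and -0.14 in the arrays labelled KHSRP siRNA, against -0.05, 0.03 and 0.05 in those labelled scramble siRNA. These overlapped as well, since scramble replicate 1 lay below replicates 1 and 2 of KHSRP siRNA. Without KHSRP siRNA replicate 3 the constitutive median was -0.05, and without scramble replicate 3 it was -0.07.

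**Figure D2:**
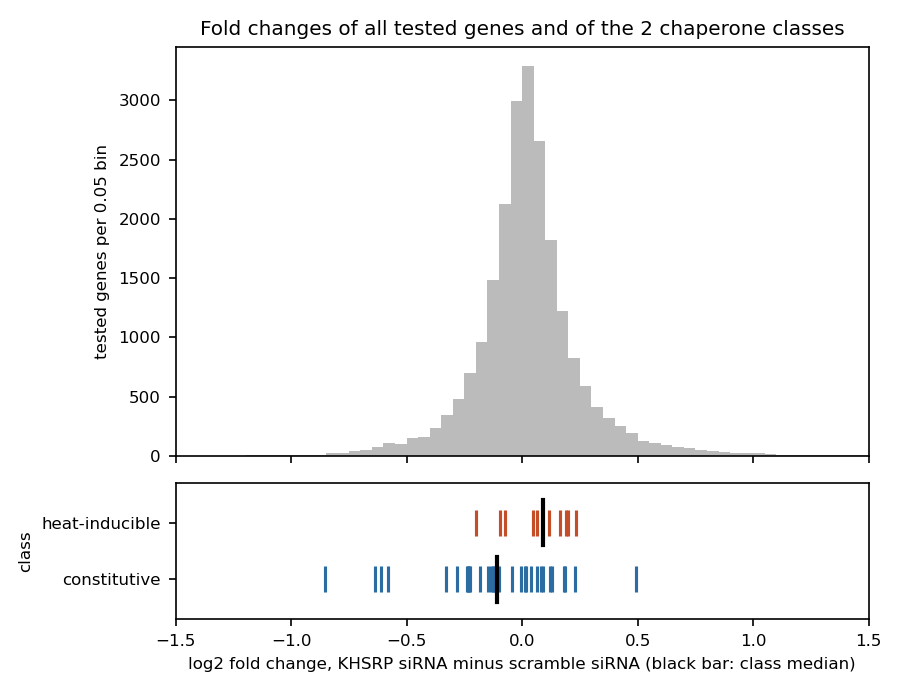
The histogram shows the log2 fold changes of all tested genes in bins of 0.05, and the ticks show the heat-inducible and constitutive members with a black bar at each class median (0.09 and -0.11). The axis is limited to plus or minus 1.5, beyond which 26 tested genes and no member lie, and the heat-inducible ticks all fall between -0.20 and 0.23.

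HSF1, the transcription factor that drives the heat shock response, measured 5.81, 5.56 and 5.73 in the arrays labelled KHSRP siRNA, against 5.68, 5.45 and 5.68 in those labelled scramble siRNA. The groups overlapped and differed by 0.10 (SE 0.11, limma adjusted p = 0.784, range over the alternatives 0.02 to 0.17). HSF1 activity is known to be set mainly by its protein's state, which these arrays do not measure. HSF2 has no row under its symbol here and is not described.

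Among heat-inducible members, the stress-induced cytosolic HSP70 genes HSPA1A and HSPA1B measured 8.71, 8.73 and 8.57 in the arrays labelled KHSRP siRNA, against 8.82, 8.69 and 8.71 in those labelled scramble siRNA. The arrays overlapped, with a log2 fold change of -0.08 (SE 0.085, limma adjusted p = 0.799, 95% interval -0.27 to 0.12, range over the alternatives -0.12 to -0.03). These near-identical genes stood on 10 rows, 6 annotated with both and 4 with HSPA1A alone. The difference lay between -0.08 and -0.0002 on all 10, although the mean level of the rows ran from 4.76 to 8.70. Several of the rows moved together from array to array, so the 10 are not separate measurements. Those annotated with HSPA1A alone had means from 4.76 to 4.86, close to the 4.73 given above, where a difference near 0 says little. The split between HSPA1A and HSPA1B is uncertain because they can share probes. HSPA6, an HSP70 gene known to be nearly silent without stress, measured 4.57, 4.48 and 4.33 in the arrays labelled KHSRP siRNA, against 4.65, 4.21 and 4.33 in those labelled scramble siRNA. Its means lay under 4.73, the olfactory receptor percentile given above, in both groups. The groups overlapped and differed by 0.07 (SE 0.13, limma adjusted p = 0.906), and -0.03 without scramble replicate 2.

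DNAJB1, the J protein gene of the heat shock response, measured 6.65, 6.95 and 7.10 in the arrays labelled KHSRP siRNA, against 6.71, 6.64 and 6.65 in those labelled scramble siRNA. KHSRP siRNA replicate 1 lay inside the scramble range and the other two lay above it. The log2 fold change of 0.23 (SE 0.12, limma adjusted p = 0.455) was the highest of the class, and was 0.14 without KHSRP siRNA replicate 3 and 0.36 without its replicate 1. Its relative DNAJB4 measured 6.63, 6.70 and 6.85 in the arrays labelled KHSRP siRNA, against 6.35, 6.80 and 6.53 in those labelled scramble siRNA, so that the groups overlapped (0.16, SE 0.13, range over the alternatives 0.06 to 0.28). BAG3, which links HSP70 to selective autophagy, measured 5.60, 5.57 and 5.25 in the arrays labelled KHSRP siRNA, against 5.25, 5.26 and 5.34 in those labelled scramble siRNA. KHSRP siRNA replicates 1 and 2 lay above all scramble arrays and replicate 3 among them, with a log2 fold change of 0.19 (SE 0.11, range 0.11 to 0.30).

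HSP90AA1, which encodes the inducible cytosolic HSP90, measured 16.10, 16.06 and 16.06 in the arrays labelled KHSRP siRNA, against 15.95, 15.94 and 15.97 in those labelled scramble siRNA. All 3 arrays labelled KHSRP siRNA were higher, yet the log2 fold change of 0.12 (SE 0.07, limma adjusted p = 0.545) did not pass, and it was 0.06 after quantile normalization again. HSPB1, the small heat shock protein HSP27, measured 7.06, 6.93 and 7.02 in the arrays labelled KHSRP siRNA, against 6.88, 6.67 and 6.86 in those labelled scramble siRNA. The groups did not overlap, with a log2 fold change of 0.20 (SE 0.09, limma adjusted p = 0.387), or 0.13 without scramble replicate 2. These were the only 2 of the 10 heat-inducible rows whose groups did not overlap, a share of 20.0% that is close to the 19.4% of all tested genes.

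HSPH1, an HSP110 gene that acts as a release factor for HSP70, measured 14.57, 14.93 and 14.73 in the arrays labelled KHSRP siRNA, against 14.79, 14.86 and 14.87 in those labelled scramble siRNA. The arrays labelled KHSRP siRNA lay on both sides of the scramble range (log2 fold change -0.10, SE 0.11, range -0.19 to -0.01). The small heat shock protein genes HSPB8 and CRYAB had both group means under 4.73. HSPB8 measured 3.94, 3.56 and 3.60 in the arrays labelled KHSRP siRNA, against 4.11, 3.70 and 3.89 in those labelled scramble siRNA (log2 fold change -0.20, SE 0.14, range -0.32 to -0.09). CRYAB measured 4.35, 4.52 and 4.26 in the arrays labelled KHSRP siRNA, against 4.34, 4.38 and 4.26 in those labelled scramble siRNA (log2 fold change 0.05, SE 0.09), and was at -0.02 without KHSRP siRNA replicate 2. Both overlapped between groups, and fold changes at such levels can be compressed.

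Of the 10 heat-inducible rows, 0 passed limma's adjusted threshold and 0 had an unadjusted p under 0.05, while adjusted p-values ran from 0.387 to 0.906. Of all tested genes 0.759% passed and 14.4% had such a p, so counts of 0 among 10 rows do not set the class apart. The 95% interval of the log2 fold change stayed within plus or minus 0.5 for 8 of the 10. The other two were HSPB8, whose interval reached -0.54, and DNAJB1, whose interval reached 0.52. HSPA6 and CRYAB, which are among the 8, and HSPB8 had both group means under 4.73, where a difference can be compressed. An interval within these bounds was found for 20 of the 30 constitutive rows and for 15997 of all 22412 tested genes. Staying within them is thus common and not particular to the heat-inducible members.

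**Figure D3:**
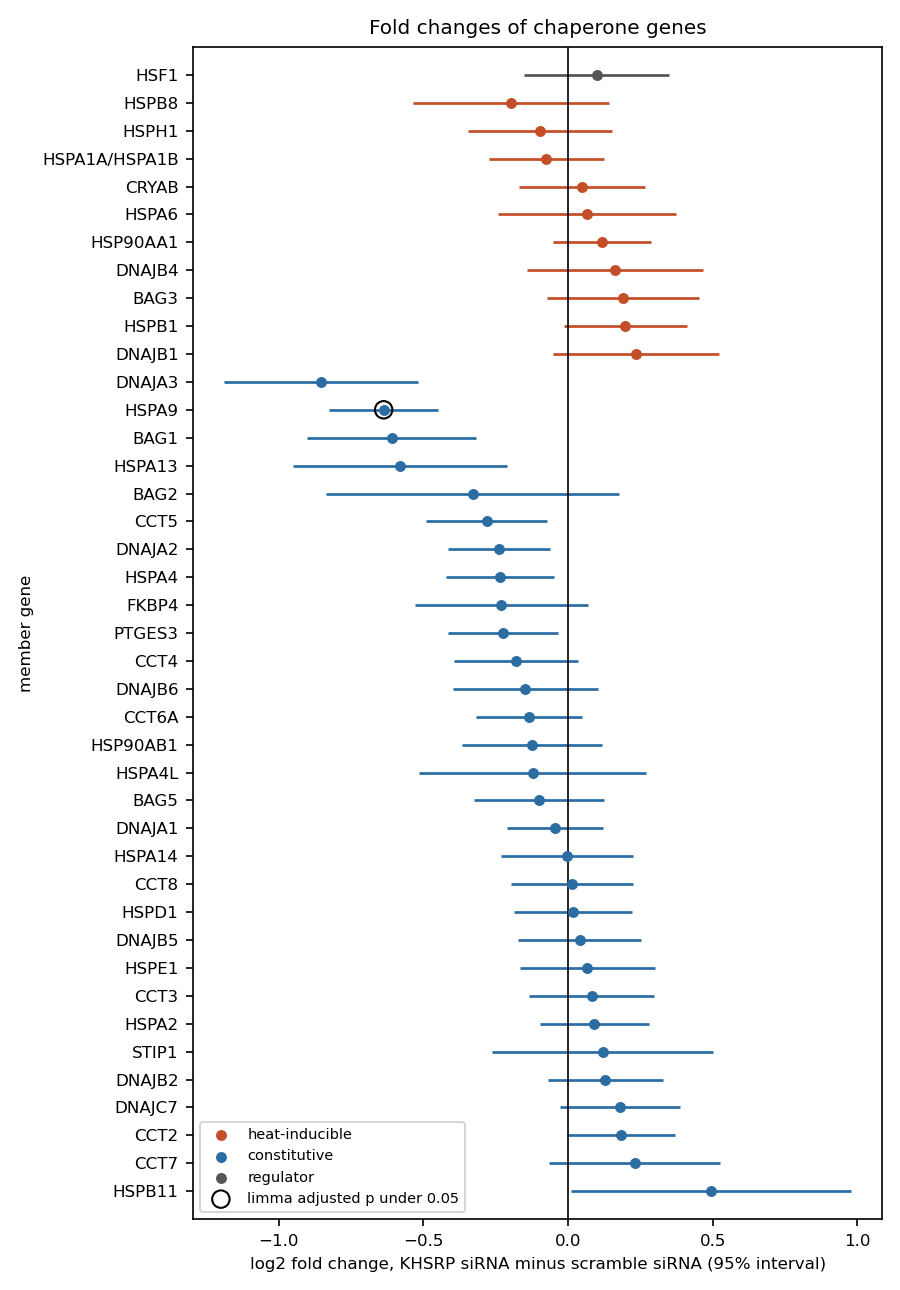
Points are the log2 fold changes of the 41 rows (KHSRP siRNA minus scramble siRNA) with limma's 95% intervals, coloured by class, and the circle marks an adjusted p under 0.05. HSPA9 at -0.64 is the circled gene, and the intervals of all heat-inducible members include 0.

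The constitutive HSP70 genes serve separate compartments. HSPA9 encodes mortalin, the HSP70 of the mitochondrial matrix, which pulls in and folds imported proteins. HSPA9 measured 12.93, 13.03 and 12.90 in the arrays labelled KHSRP siRNA, against 13.53, 13.60 and 13.64 in those labelled scramble siRNA. All 3 arrays labelled KHSRP siRNA lay below all 3 scramble arrays. The means were 12.95 ± 0.07 and 13.59 ± 0.05 (SD, n = 3 each), and the log2 fold change of -0.64 (SE 0.08, limma adjusted p = 0.0438) equals 64.3% of the scramble level, with a 95% interval from 56.4% to 73.2%. The log2 fold change ran from -0.68 to -0.61 over 13 alternatives, and the adjusted p from 0.0231 to 0.169. The call was lost in 8 of the 13, among them without KHSRP siRNA replicate 2 (0.0987) or 3 (0.169), and without scramble replicate 1 (0.0585), 2 (0.147) or 3 (0.159). All 170 calls of the comparison had an adjusted p between 0.0438 and 0.0496, just inside the threshold.

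DNAJA3, the mitochondrial J protein that is the partner of mortalin, measured 7.59, 7.71 and 7.35 in the arrays labelled KHSRP siRNA, against 8.50, 8.15 and 8.56 in those labelled scramble siRNA. The groups did not overlap. Its means were 7.55 ± 0.18 and 8.41 ± 0.22 (SD, n = 3 each), and the log2 fold change of -0.85 (SE 0.14, limma adjusted p = 0.0530) was the lowest of the members, or 55.3% of the scramble level with an interval from 43.9% to 69.8%. It passed only under 2 of 13 alternatives, namely array weights (0.0290) and a fit restricted to the brighter genes (0.0336). The mitochondrial chaperonin genes had values near 0. HSPD1, which encodes HSP60, measured 10.56, 10.56 and 10.49 in the arrays labelled KHSRP siRNA, against 10.39, 10.58 and 10.58 in those labelled scramble siRNA, and its sign was not settled (0.02, SE 0.09, range -0.05 to 0.05). HSPE1, its HSP10 lid, measured 10.02, 10.06 and 9.80 in the arrays labelled KHSRP siRNA, against 9.96, 9.80 and 9.93 in those labelled scramble siRNA (0.07, SE 0.10, range 0.02 to 0.14). Both overlapped between groups, with 95% intervals from -0.19 to 0.22 for HSPD1 and from -0.17 to 0.30 for HSPE1. These 2 genes are known to share a bidirectional promoter.

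HSPA13, an HSP70-like protein of microsomes, measured 9.25, 9.77 and 9.57 in the arrays labelled KHSRP siRNA, against 10.18, 10.25 and 9.89 in those labelled scramble siRNA. Every array labelled KHSRP siRNA was lower, with a wide spread among them (log2 fold change -0.58, SE 0.16, limma adjusted p = 0.150). HSPA14, which works on ribosomes, stood at -0.004 (SE 0.10), and its sign changed between alternatives (range -0.07 to 0.07). HSPA2, known best from the testis, had both means under 4.73 and a value of 0.09 (SE 0.08, range 0.05 to 0.12). HSPA4, an HSP110 release factor, measured 13.78, 13.88 and 13.78 in the arrays labelled KHSRP siRNA, against 13.98, 14.09 and 14.07 in those labelled scramble siRNA. The groups did not overlap, and the log2 fold change of -0.24 (SE 0.08, limma adjusted p = 0.231) did not pass. Its relative HSPA4L stood at -0.12 (SE 0.17) and at 0.05 without KHSRP siRNA replicate 3.

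**Figure D4:**
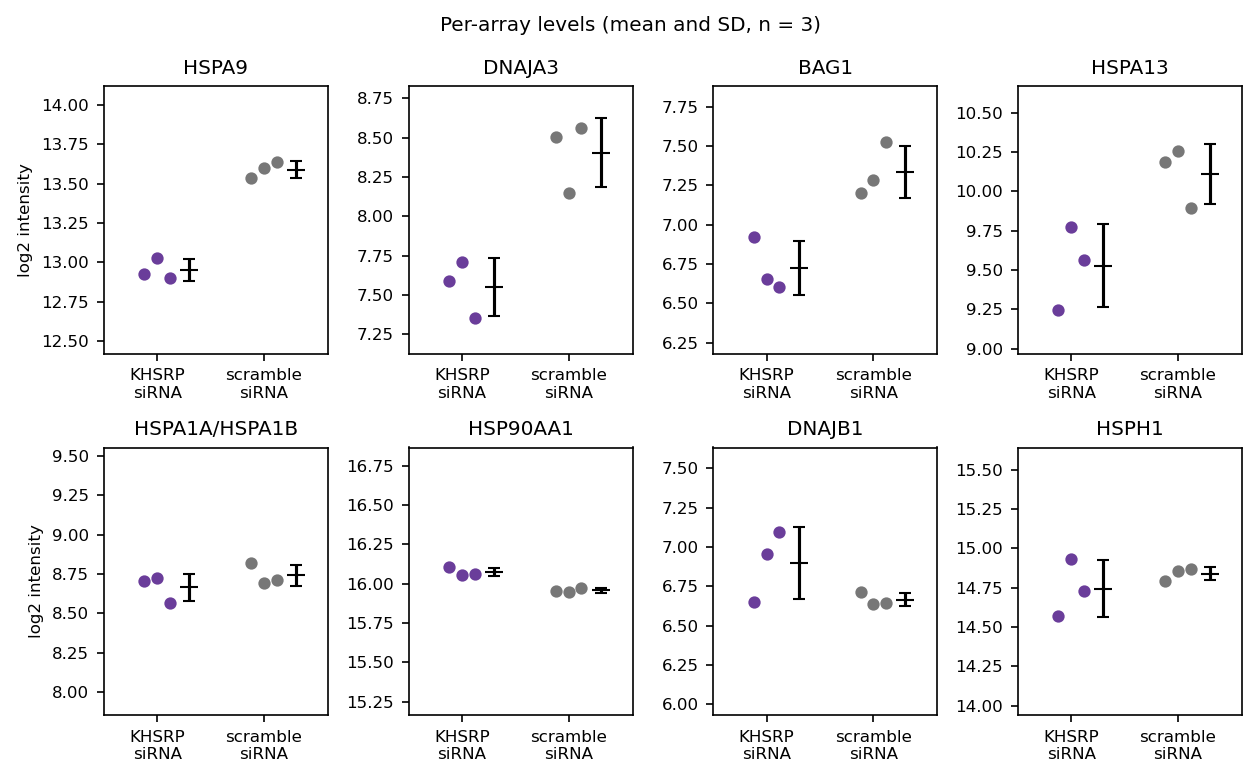
Points are log2 intensities of single arrays, with mean and SD beside them (n = 3), for 4 constitutive members in the upper row and 4 heat-inducible rows in the lower row. All axes span the same number of log2 units. The 3 arrays labelled KHSRP siRNA lie below all scramble arrays for HSPA9, DNAJA3, BAG1 and HSPA13, above them for HSP90AA1, and overlap them for HSPA1A/HSPA1B, DNAJB1 and HSPH1.

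Among BAG proteins, which trigger nucleotide release from HSP70, BAG1 measured 6.92, 6.65 and 6.60 in the arrays labelled KHSRP siRNA, against 7.20, 7.28 and 7.52 in those labelled scramble siRNA. The groups did not overlap. Its log2 fold change of -0.61 (SE 0.12, limma adjusted p = 0.0770) corresponds to 65.5% of the scramble level with an interval from 53.5% to 80.2%, and did not pass. It passed under the same alternatives as DNAJA3, with adjusted p-values of 0.0364 and 0.0491. BAG2 stood at -0.33 (SE 0.22, range -0.51 to -0.15) and BAG5 at -0.10 (SE 0.10, range -0.14 to -0.02), both with overlapping groups.

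The other J protein genes differed less from 0. DNAJA2, a cytosolic partner of HSP70, measured 12.03, 12.05 and 11.95 in the arrays labelled KHSRP siRNA, against 12.28, 12.26 and 12.22 in those labelled scramble siRNA. All 3 arrays labelled KHSRP siRNA were lower, with a log2 fold change of -0.24 (SE 0.07, limma adjusted p = 0.204). DNAJA1, also cytosolic, showed groups that did not overlap at a difference of -0.04 (SE 0.07, range -0.09 to -0.04). DNAJC7, which binds both HSP70 and HSP90, stood at 0.18 (SE 0.09, range 0.13 to 0.25), also with groups that did not overlap. DNAJB6, known for holding back polyglutamine aggregates, stood at -0.15 (SE 0.11, range -0.23 to -0.08), and DNAJB2 at 0.13 (SE 0.08, range 0.08 to 0.16). DNAJB5, with both means under 4.73, stood at 0.04 (SE 0.09) and at -0.01 without KHSRP siRNA replicate 3. Over all 9 J protein rows, 4 were fitted below 0 and 5 above.

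The constitutive cytosolic HSP90 gene HSP90AB1 measured 16.96, 17.12 and 16.84 in the arrays labelled KHSRP siRNA, against 16.98, 17.13 and 17.17 in those labelled scramble siRNA. The groups overlapped, with a log2 fold change of -0.12 (SE 0.10, limma adjusted p = 0.691, range -0.20 to -0.06). PTGES3, the co-chaperone p23 that stabilises the closed form of HSP90, measured 13.95, 13.98 and 13.86 in the arrays labelled KHSRP siRNA, against 14.18, 14.07 and 14.20 in those labelled scramble siRNA. These did not overlap, and the log2 fold change of -0.22 (SE 0.08, limma adjusted p = 0.264) did not pass. The immunophilin gene FKBP4 stood at -0.23 (SE 0.13, range -0.33 to -0.14). STIP1, which hands clients from HSP70 to HSP90, stood at 0.12 (SE 0.16), and at -0.03 without KHSRP siRNA replicate 2. AHSA1, an activator of the HSP90 ATPase, has no row under its symbol here and is not described.

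The cytosolic chaperonin CCT folds actin and tubulin in a ring of 8 different subunits, of which 7 had a row of their own, 3 of them fitted below 0 and 4 above. CCT5 measured 11.46, 11.57 and 11.40 in the arrays labelled KHSRP siRNA, against 11.65, 11.83 and 11.79 in those labelled scramble siRNA. Its groups did not overlap, at a log2 fold change of -0.28 (SE 0.09, limma adjusted p = 0.209). CCT2 measured 14.49, 14.34 and 14.48 in the arrays labelled KHSRP siRNA, against 14.23, 14.26 and 14.26 in those labelled scramble siRNA. Here all arrays labelled KHSRP siRNA were higher (0.18, SE 0.08, limma adjusted p = 0.355). CCT4 stood at -0.18 (SE 0.09), CCT6A at -0.13 (SE 0.08), CCT7 at 0.23 (SE 0.13, range 0.11 to 0.32), CCT3 at 0.08 (SE 0.09, range 0.001 to 0.12) and CCT8 at 0.01 (SE 0.09, range -0.035 to 0.07). The subunits of this complex thus lay on both sides of 0, and none passed limma's adjusted threshold, with 1 of 7 at an unadjusted p under 0.05 (14.3%, against 14.4% of all tested genes). The groups did not overlap for 3 of the 7 (42.9%, against 19.4% of all tested genes), a share not counted among brighter genes alone. Of these, CCT5 and CCT6A were lower and CCT2 was higher. TCP1, the remaining subunit, shares its row with a small RNA gene, as given below, and is not in these counts. It stood at -0.43 with a limma unadjusted p of 0.00542, and its groups did not overlap.

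HSPB11, listed as a small heat shock protein by its older name, is the intraflagellar transport gene now called IFT25. It measured 6.55, 6.42 and 6.78 in the arrays labelled KHSRP siRNA, against 6.44, 5.63 and 6.20 in those labelled scramble siRNA. The groups overlapped, and the log2 fold change of 0.49 (SE 0.21, limma adjusted p = 0.337) was the highest of the members and ran from 0.26 without scramble replicate 2 to 0.67 without scramble replicate 1. It was the 1 member that was higher at an unadjusted p under 0.05.

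The remaining 3 of the 47 genes stood on rows annotated with a small RNA gene as well, and were left out of all counts above. Their values are given here as a description, since small RNA from the same locus could add to the row. HSPA8, the constitutive cytosolic HSP70, shares its row with SNORD14C and SNORD14D. It measured 15.91, 16.05 and 15.94 in the arrays labelled KHSRP siRNA, against 15.90, 15.95 and 16.04 in those labelled scramble siRNA, a difference of 0.002 (SE 0.08, 95% interval -0.19 to 0.20). TCP1, the remaining CCT subunit, shares its row with SNORA29. It measured 13.00, 12.70 and 12.64 in the arrays labelled KHSRP siRNA, against 13.19, 13.25 and 13.18 in those labelled scramble siRNA, with groups that did not overlap and a difference of -0.43 (SE 0.11, limma adjusted p = 0.131). CDC37, the co-chaperone that brings kinases to HSP90, shares its row with MIR1181 and stood at -0.002 (SE 0.12, 95% interval -0.29 to 0.29).

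A list of 63 other chaperone and heat shock genes, of which 56 were measured, gave 2 calls by limma, 1 in each direction (3.57%, against 0.759% of all tested genes). The prefoldin subunit gene PFDN5 rose and the gene of the AAA ATPase VCP, which extracts ubiquitylated proteins for the proteasome, fell. PFDN5 measured 15.20, 14.99 and 15.27 in the arrays labelled KHSRP siRNA, against 14.50, 14.26 and 14.37 in those labelled scramble siRNA (0.77, SE 0.11, limma adjusted p = 0.0473). VCP measured 10.66, 10.88 and 10.87 in the arrays labelled KHSRP siRNA, against 11.32, 11.56 and 11.49 in those labelled scramble siRNA (-0.65, SE 0.10, limma adjusted p = 0.0473). Over alternatives the adjusted p ran from 0.0235 to 0.169 for PFDN5 and from 0.0245 to 0.169 for VCP, and each was called in 3 of 13. Leaving out any 1 of the 6 arrays ended both calls, with adjusted p-values from 0.0531 to 0.169 for PFDN5 and from 0.0600 to 0.169 for VCP. Of these 56 genes 28 were fitted above 0 and 28 below, beside 12316 above and 10096 below among all tested genes. A limma unadjusted p under 0.05 was found for 16 (28.6%, against 14.4% of all tested genes), 10 of them higher and 6 lower. Most of the 56 were bright, with 53 above the median level. Refitted among genes above that level, 14 of the 53 or 26.4% had such a p, near the 22.3% of all such genes. Lower ones made up 9.43%, against 9.32%.

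**Figure D5:**
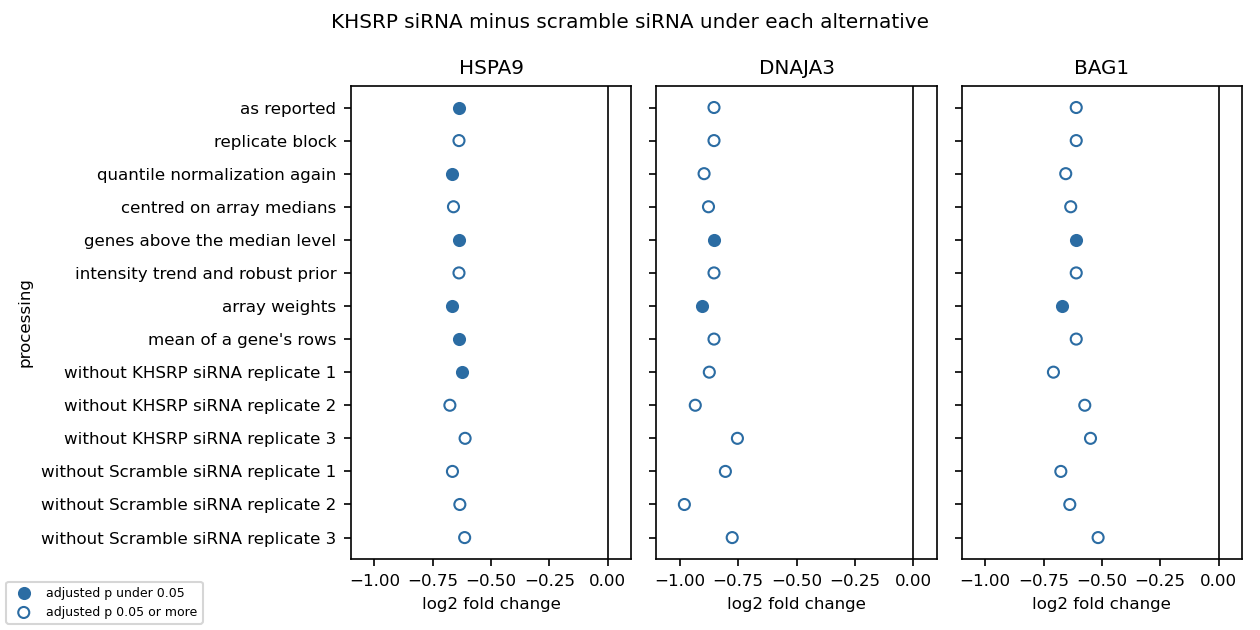
Points are the log2 fold changes of HSPA9, DNAJA3 and BAG1 as reported and under 13 alternatives (rows), filled where the limma adjusted p was under 0.05. All points lie between -0.98 and -0.52, while filled points are 6 for HSPA9, counting the reported value, and 2 each for DNAJA3 and BAG1.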

How the data were processed

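Total RNA was turned into amplified, biotin-labelled cDNA for Affymetrix arrays, per the labels' protocols. The authors deposited log2 intensities for 70523 rows and 6 arrays. The submitters' processing notes name RMA, Affymetrix Expression Console, Transcriptome Analysis Console and build hg19, without settings. RMA corrects background, quantile-normalizes and summarises probes, and can compress differences of dim genes. Array maxima reached 19.9, unusually high for RMA, so a further transform of the scale is possible. Arrays carry no read depth, and precision is limited by their number.

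Gene names came from the platform annotation with symbols updated through RefSeq (GRCh38.p14). Of 70523 rows, 23781 had 1 symbol, 1543 several and 45199 were unnamed. Rows with several symbols were left out, except those whose symbols were all members and that of KHSRP. The row with the highest mean over the 6 arrays stood for a gene. Of the 5 members not counted, 2 had no row under their symbol and 3 shared a row with non-members. The fit across genes used limma 3.58.1 (lmFit and eBayes; R 4.3.3), two-sided, with Benjamini-Hochberg adjustment over all 22412 tested genes, and called at an adjusted p under 0.05. The code was tested on simulated data.

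Heat-inducible members were HSPA1A, HSPA1B, HSPA6, HSPB1, HSPB8, CRYAB, DNAJB1, DNAJB4, HSPH1, HSP90AA1 and BAG3. HSF1 and HSF2 were regulators, and all others were counted as constitutive, which does not mean that heat cannot induce them. The wider heat-inducible class added the rows of DNAJA1, HSPD1, HSPE1, STIP1, FKBP4, HSPA4L, DNAJB6 and BAG2, which count as constitutive elsewhere. Per-array values were given by rule for called members, those at an unadjusted p under 0.05, regulators, heat-inducible members, HSPA8, HSP90AB1, HSPD1 and HSPE1, and those of CCT2 and TCP1 were added after their values were seen. Of other chaperone genes the called ones were named. The members, lists and alternatives were chosen with earlier results of these data known. Alternatives were a replicate block, quantile normalization again, median centring, genes above the median level, an intensity trend with robust prior, array weights, the mean of a gene's rows, handling of rows with several symbols, class boundaries and leaving out each array.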

Additional observations from a re-analysis of the deposited data

How the results depend on the processing

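Of 41 member rows, 33 kept the sign of their log2 fold change in every alternative and 8 did not, and all 8 had values near 0 and were not called. By array left out, these ran from -0.034 to 0.24 for STIP1, -0.25 to 0.053 for HSPA4L, -0.022 to 0.11 for CRYAB, -0.0285 to 0.19 for HSPA6, -0.0084 to 0.098 for DNAJB5, -0.046 to 0.050 for HSPD1, -0.023 to 0.069 for CCT8 and -0.050 to 0.073 for HSPA14. HSPD1 was also at -0.018 with quantile normalization repeated, -0.006 with median centring and -0.024 with array weights, and CCT8 at -0.021, -0.010 and -0.035 in that order. The count of called members, 1 as reported, was 0 by limma with the replicate block, median centring, and intensity trend and robust prior, with 9, 10 and 9 members at an unadjusted p under 0.05, a count that ran from 5 to 11 by array left out. It was 3 with array weights and likewise 3 in the fit of genes above the median level, where HSPA9, DNAJA3 and BAG1 passed, and ran from 0 to 1 when an array was left out. For the list of other chaperones, 2 calls became 0 by limma with the replicate block, quantile normalization again, median centring or the intensity trend, with 19, 18, 16 and 14 genes at an unadjusted p under 0.05. They became 4 in the fit of brighter genes and 6 with array weights, and ran from 0 to 2 when an array was left out, the 2 without KHSRP siRNA replicate 1 being DNAJC1 and PPID. Over all genes, 170 calls became 1 with the replicate block, 32 after quantile normalization again, 433 in the fit of brighter genes, 704 with array weights and 0 with median centring (3111 at an unadjusted p under 0.05) or the trend (3097), and from 0 to 329 by array left out. The heat-inducible median ran from 0.08 to 0.11 by array left out, was 0.05 after repeated quantile normalization, 0.16 over the 7 rows above the median level and 0.03 for a wider class. The constitutive median ran from -0.13 to -0.051 by array left out, and was -0.12 without the CCT subunits. It was -0.10 with the 3 rows shared with small RNA genes, an alternative chosen after seeing the data. Same-numbered arrays correlated in their deviations from the group means at 0.164, 0.059 and -0.076, so the numbers were not taken to pair the arrays. With the replicate block, HSPA9 had an adjusted p of 0.0900. The causes of these changes were not tested. Fold changes of the 5 members with both means under 4.73 are limited by signal over background.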

Other observations

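Prefoldin, the jellyfish-shaped holdase that delivers unfolded actin and tubulin to CCT, was higher in value in the arrays labelled KHSRP siRNA for all 6 of its measured subunits, which were singled out after their values were seen. The log2 fold changes were 0.77 (SE 0.11) for PFDN5, 0.50 (SE 0.08) for PFDN4, 0.45 (SE 0.09) for PFDN1, 0.39 (SE 0.11) for VBP1, 0.22 (SE 0.13) for PFDN6 and 0.19 (SE 0.11) for PFDN2. Without scramble replicate 2 the values were 0.11 for PFDN6 and 0.10 for PFDN2, and the groups of both overlapped. PFDN5 alone passed limma's adjusted threshold (0.0473), and PFDN4 stood at 0.0515. The groups did not overlap for 4 of the 6, where 11.6% of all tested genes were higher without overlap. That share was not counted among brighter genes alone. The median of the 6 prefoldin subunits, 0.42, stood beside 0.01 for 7 subunits of CCT, which receives their clients. TCP1, at -0.43 on a row shared with a small RNA gene, was left out of the CCT median. The difference between these lists was not tested.

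Further chaperone genes on both sides of 0 were the J protein genes DNAJC1 (0.67, SE 0.13, limma adjusted p = 0.0679) and DNAJC13 (-0.40, SE 0.09, limma adjusted p = 0.0912). The HSP90 co-chaperones CHORDC1, itself a known heat shock gene, and SUGT1 stood at 0.37 (SE 0.09) and 0.43 (SE 0.11), and the cyclophilin gene PPID and the HSP70-interacting gene ST13 at -0.72 (SE 0.21) and -0.32 (SE 0.09). The groups of these 6 did not overlap, and none passed as reported, while DNAJC1 and PPID did without KHSRP siRNA replicate 1 (limma adjusted p = 0.0362 for each). Over the alternatives DNAJC1 was called in 3 of 13 and DNAJC13 in 1, with array weights (limma adjusted p = 0.0424). In the whole list the groups did not overlap for 16 of 56 genes, or 28.6%, against 19.4% of all tested genes, and this was not counted among brighter genes alone. The mitochondrial HSP90 gene TRAP1 and the mitochondrial disaggregase gene CLPB stood at -0.43 (SE 0.19) and -0.36 (SE 0.16), with groups that overlapped, and CLPB was at -0.21 without scramble replicate 3. Other mitochondrial genes of the list were nearer 0, with DNAJC11 at -0.24 (SE 0.12), HSCB at -0.10 (SE 0.09) and GRPEL1 at -0.10 (SE 0.08). GRPEL2 stood at -0.06 (SE 0.13) and DNAJC19 at 0.15 (SE 0.22), and the groups of all these overlapped. These genes too were named after their values were seen.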
